A study of Mus musculus with 108 samples.

Results

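Gfi1, Gfi1b, Myb and Ikzf1 encode transcription factors of the blood system, and their loci were followed here through an enhancer reporter screen in differentiating mouse embryonic stem (ES) cells. For each of the 4 genes, of 21938 protein-coding genes in the GENCODE annotation of mm10, all reporter fragments overlapping the gene body or the 100 kb on either side were taken. These windows held 1113 of 1176712 distinct sorted fragments and 89 of 76765 merged sites, a site being a run of overlapping fragments of one class. A fragment was classed as distal or promoter by the deposited list in which it stood. Membership rests on position alone, and no value links a site to the gene whose window holds it.

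The libraries were HM-1 mouse ES cells in which a fragment of open chromatin, joined to the minimal HSP68 promoter and Venus-YFP, was inserted at the HPRT locus, so every sorted group, the Negative gates included, carried this reporter cassette. Cells were taken at 5 stages, namely ES, HB (FLK1+ hemangioblast), HE1 (KIT+ TIE2+ CD41- early hemogenic endothelium), HE2 (KIT+ TIE2+ CD41+ late hemogenic endothelium) and HP (KIT+ TIE2- CD41+ hematopoietic progenitor). Each stage was divided by YFP brightness: replicates 1 to 4 had the gates Negative, Low, Medium and High, while replicate 5 had Negative, Low and Medium/High, for 95 sorted libraries in all. Beside them stood 10 lists of cloned fragments, 5 from the plasmid pDONR and 5 from the plasmid pSKB with 1 per stage and vector, together with 3 control lists from PCR on HM-1 cells without the reporter cassette. HM-1 is 1 cell line, the cells grew in culture, and a fragment was read away from its own locus in front of a foreign promoter.

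GFI1 and GFI1B are related zinc finger repressors that recruit histone-modifying complexes, and in the hemogenic endothelium they act below RUNX1 to silence the endothelial programme while blood cells form. MYB is needed for the growth of definitive blood progenitors. IKZF1, also called Ikaros, is a zinc finger factor of lymphoid and other blood lineages. Genes of this kind are usually controlled by several distal elements, some of which lie inside neighbouring genes.

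Sorted lists held each fragment once, without a read count. The 95 libraries listed between 504 and 131036 fragments, with a median of 60021 in replicate 1 and 41584.5 in replicate 2 against 1111 to 1948 in replicates 3 to 5. Replicates 1 and 2 supplied 97.4% of the listings at Gfi1, 93.4% at Gfi1b, 91.8% at Myb and 93.3% at Ikzf1, so an absence from replicates 3 to 5 was mostly not informative at this depth. In HE1, Negative replicate 1 and Medium replicate 2 shared 89445 fragments, 78.5% of the smaller list. Negative replicate 3 and Low replicate 4 of HE1 shared 83.04%, whereas the next pair (HP Medium replicate 1 and Low replicate 2) shared 35.0%. HE1 fragment counts of the loci and of sites named below are therefore given with and without these 4 libraries. Fragments of all listings matched an identical plasmid fragment in 83.5% of cases, and at the 4 loci in 81.9% (Gfi1), 82.3% (Gfi1b), 88.4% (Myb) and 86.8% (Ikzf1).

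The sequences below are the 300 bases around the median fragment midpoint of the distal site that was positive in most of the 25 stage and replicate sets at each gene (at Ikzf1 the +137.9 kb site tied with the +103.8 kb site and had more positive fragments), with a further Myb site that had no positive fragment in ES, and the 250 bases before the RefSeq start of Myb and Ikzf1, whose own starts were recovered most often. Distal sequences are the plus strand of mm10 and promoters run in the direction of the gene (RefSeq, GRCm38.p6). Capitals mark letters searched on both strands, which may overlap one another, namely AGATAA for GATA factors, TGTGGT for RUNX factors, GGAAGT for ETS factors, CAGCTG as an E-box, AATCAC for GFI1 and AACTG for MYB.
Gfi1 -33.4 kb site (chr5:107759156-107759455, plus strand): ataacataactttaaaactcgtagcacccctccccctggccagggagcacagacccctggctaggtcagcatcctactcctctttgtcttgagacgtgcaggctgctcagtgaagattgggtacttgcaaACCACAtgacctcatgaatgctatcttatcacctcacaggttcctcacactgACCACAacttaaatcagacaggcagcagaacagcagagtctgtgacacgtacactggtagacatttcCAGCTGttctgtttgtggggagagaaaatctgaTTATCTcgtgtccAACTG
Gfi1b +96.2 kb site (chr2:28525654-28525953, plus strand): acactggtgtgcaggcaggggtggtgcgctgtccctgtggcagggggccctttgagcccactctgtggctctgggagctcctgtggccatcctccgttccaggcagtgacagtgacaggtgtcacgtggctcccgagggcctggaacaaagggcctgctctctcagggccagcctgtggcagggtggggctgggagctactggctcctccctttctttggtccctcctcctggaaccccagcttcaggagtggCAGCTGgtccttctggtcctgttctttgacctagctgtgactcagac
Myb +15.8 kb site (chr10:21145021-21145320, plus strand): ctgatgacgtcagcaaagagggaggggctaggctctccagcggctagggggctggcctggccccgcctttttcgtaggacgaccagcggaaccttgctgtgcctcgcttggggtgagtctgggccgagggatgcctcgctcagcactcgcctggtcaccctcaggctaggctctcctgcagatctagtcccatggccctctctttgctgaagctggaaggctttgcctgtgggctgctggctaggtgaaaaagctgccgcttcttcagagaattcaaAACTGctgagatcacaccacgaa
Myb -67.8 kb site (chr10:21228569-21228868, plus strand): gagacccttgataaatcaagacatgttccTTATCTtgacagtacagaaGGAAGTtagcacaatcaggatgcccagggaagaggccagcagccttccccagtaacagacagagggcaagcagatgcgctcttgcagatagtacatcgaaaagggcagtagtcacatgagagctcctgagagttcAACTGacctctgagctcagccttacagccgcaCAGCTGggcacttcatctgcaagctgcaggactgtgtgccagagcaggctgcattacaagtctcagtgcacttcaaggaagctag
Ikzf1 +137.9 kb site (chr11:11822687-11822986, plus strand): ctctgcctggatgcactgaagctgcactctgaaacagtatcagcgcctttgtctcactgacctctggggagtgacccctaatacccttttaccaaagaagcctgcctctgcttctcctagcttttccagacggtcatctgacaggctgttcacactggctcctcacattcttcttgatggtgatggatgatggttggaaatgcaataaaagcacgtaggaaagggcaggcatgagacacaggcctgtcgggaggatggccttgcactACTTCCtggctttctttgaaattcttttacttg
Myb promoter (chr10:21160985-21161234, minus strand): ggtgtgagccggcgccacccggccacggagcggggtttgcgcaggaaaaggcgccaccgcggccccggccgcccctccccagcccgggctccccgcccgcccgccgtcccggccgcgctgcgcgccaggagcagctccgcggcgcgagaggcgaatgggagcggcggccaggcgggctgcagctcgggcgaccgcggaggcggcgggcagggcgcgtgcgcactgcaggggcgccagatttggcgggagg
Ikzf1 promoter (chr11:11685675-11685924, plus strand): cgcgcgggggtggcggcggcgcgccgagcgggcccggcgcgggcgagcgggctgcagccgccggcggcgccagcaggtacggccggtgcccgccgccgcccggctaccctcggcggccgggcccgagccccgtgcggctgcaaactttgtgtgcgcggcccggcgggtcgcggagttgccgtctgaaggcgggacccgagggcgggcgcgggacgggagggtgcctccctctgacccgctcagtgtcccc

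The Gfi1 site held 1 GATA, 2 RUNX, 1 E-box and 1 MYB match, and the Myb -67.8 kb site 1 GATA, 1 ETS, 1 E-box and 1 MYB match. The Gfi1b +96.2 kb window held 1 E-box match, the Myb +15.8 kb window 1 MYB match and the Ikzf1 +137.9 kb window 1 ETS match. In the windows of 300 bases, AGATAA stood in 19 of 66 distal sites of the 4 loci (28.8%) against 18.5% of all distal sites, and GGAAGT in 34.8% against 27.7%. The letters TGTGGT stood in 21.2% against 25.8%, CAGCTG in 24.2% against 23.1%, AATCAC in 12.1% against 10.8% and AACTG in 54.5% against 51.5%. The 2 printed promoters held none of the 6, and over the 6 RefSeq promoters of the 4 genes only AACTG was found, in 1 of 6 (39.1% of all 32851 promoters hold it). These are letter matches and were not tested.

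**Figure D1:**
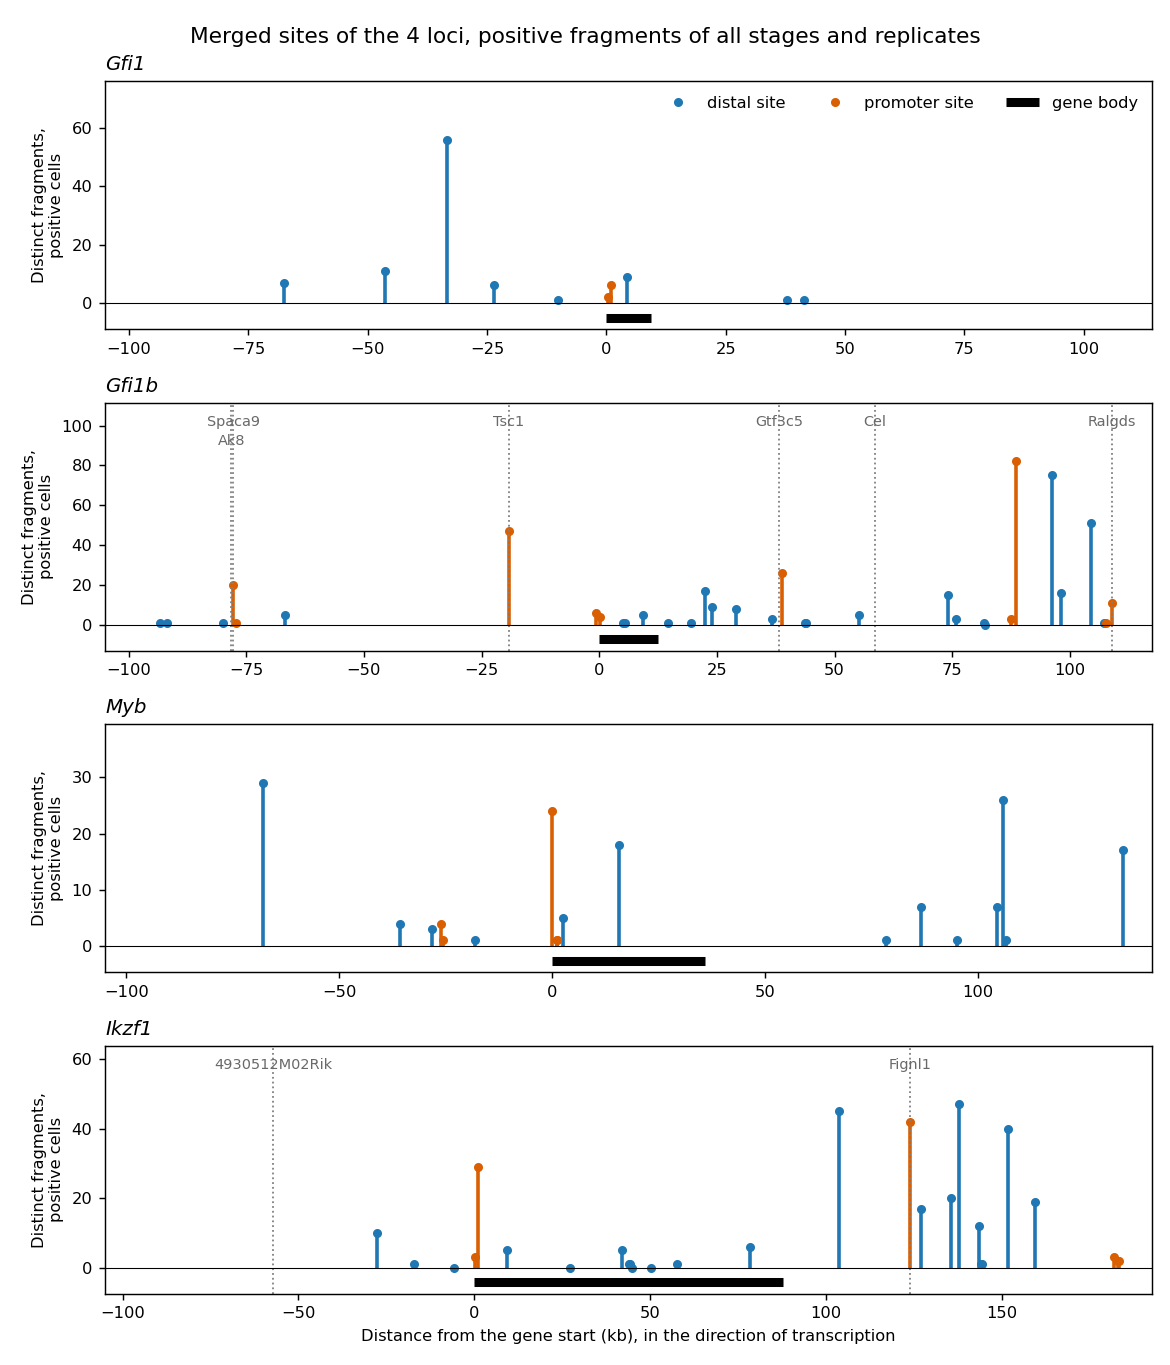
Merged sites of each locus, placed by distance from the gene start in kb (x axis, direction of transcription) and by the number of distinct fragments in positive cells over all stages and replicates (y axis). Blue points are distal sites, orange points promoter sites, black bars gene bodies and dotted lines the starts of other protein-coding genes; the Gfi1 -33.4 kb site stands at 56 fragments and no other Gfi1 site passes 11.

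Gfi1 (chr5:107716657-107726036, minus strand) had one prominent element. Its window held 109 distinct fragments at 8 distal and 2 promoter sites, and 62 of the 109 lay at the -33.4 kb site (chr5:107759060-107759770), in an intron of the neighbouring gene Evi5. This site was positive in 10 of 25 sets and in 4 replicates. From ES to HP it gave 0, 22, 26, 18 and 11 distinct positive fragments, and in Negative cells 0, 6, 10, 4 and 3. ES was thus empty in both kinds of cell, while HB already held nearly as many positive fragments as HE1. Without the 4 HE1 libraries the HE1 counts were 20 positive and 2 Negative.

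The other named Gfi1 elements also lay in introns of Evi5 and were smaller. The -67.5 kb site (chr5:107793348-107793780) gave 2, 4 and 3 positive fragments in HE1, HE2 and HP, and the -46.3 kb site (chr5:107772039-107772661) gave 6, 4 and 2. The HE1 counts were 2 and 3 without the 4 libraries, so that the order of the stages at the -46.3 kb site did not hold. Neither site had a fragment in ES or HB, in positive or in Negative cells. The site over the Gfi1 start (+0.3 kb, chr5:107725604-107725879, overlapping an untranslated exon) had 2 positive fragments in HP and 1 Negative fragment in HP, and none elsewhere.

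Gfi1b (chr2:28609450-28621982, minus strand) had the most fragments, 482 at 24 distal and 10 promoter sites, and lies among more genes than the other 3. The distal site positive in most sets was the +96.2 kb site (chr2:28525130-28526446), in an intron of Ralgds, which encodes an exchange factor for Ral GTPases. It gave 11, 19, 34, 17 and 17 distinct positive fragments in ES, HB, HE1, HE2 and HP and 8, 4, 12, 6 and 7 Negative ones. Without the 4 HE1 libraries these HE1 counts were 23 and 0. The adjoining +98.0 kb site (chr2:28523695-28524241), also within Ralgds, gave 3, 5, 9 and 8 positive fragments from ES to HE2 and 0 in HP, where Negative cells had 0 as well. Its HE1 count was 6 without the 4 libraries.

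At the Gfi1b start and at the named distal site nearest to it the counts were low. The unnamed +22.5 kb site, given under other observations, had more, with 17 distinct positive fragments over all stages. The intergenic +29.03 kb site (chr2:28592520-28593392) was positive in all 5 stages and in 10 sets, but with only 1, 3, 3, 2 and 2 fragments (2 in HE1 without the 4 libraries). The site over the gene's own start (+0.2 kb, chr2:28621589-28622066, reaching into an untranslated exon) had 2 positive fragments in HE2 and 2 in HP, 3 Negative fragments in HE2, and none in ES, HB or HE1. Among the 10 promoter-class sites of the window, those with most positive fragments cover starts of other genes: over all stages, 82 at the +88.6 kb site (Ralgds), 47 at -19.2 kb (Tsc1) and 26 at +38.9 kb (Gtf3c5), against 4 at the start of Gfi1b; they are named here after their values were seen.

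**Figure D2:**
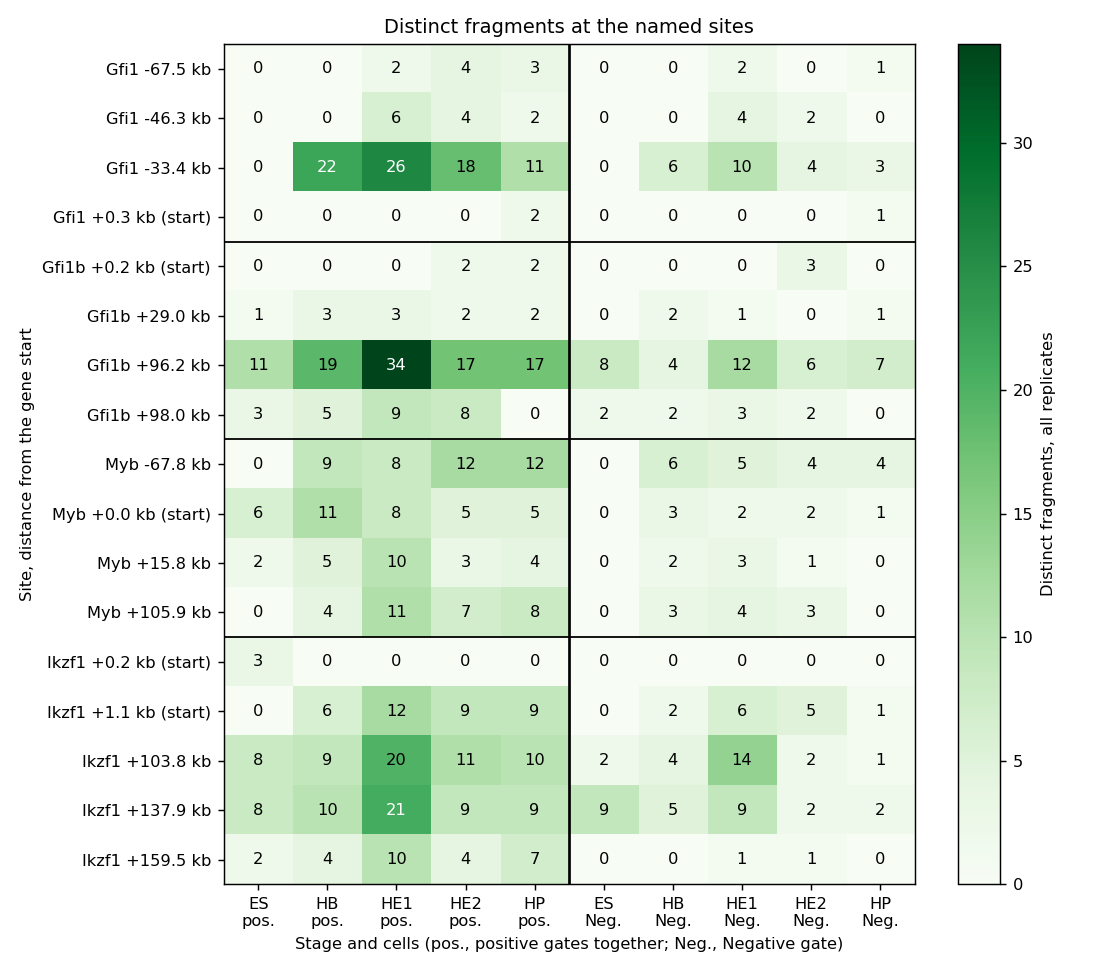
Distinct fragments at the 17 named sites (rows, with distance from the gene start in kb), for positive cells (5 columns on the left) and Negative cells (5 columns on the right) of each stage, all replicates together. The Gfi1 -33.4 kb row reads 0, 22, 26, 18 and 11 in positive cells and the Gfi1b +96.2 kb row 11, 19, 34, 17 and 17.

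Myb (chr10:21124935-21160984, minus strand) was the locus of the 4 in which the gene's own start was positive in most sets. The start site (chr10:21160513-21161436, with an untranslated exon) was positive in 12 of 25 sets and in all 5 stages, with 6, 11, 8, 5 and 5 distinct fragments. Its Negative counts were 0, 3, 2, 2 and 1. The +15.8 kb site (chr10:21144823-21145597), inside the gene and over exons of Myb and of its antisense gene Gm26577, was positive in 11 sets with 2, 5, 10, 3 and 4 fragments. Both sites thus held positive fragments in ES, where no Myb fragment at all was listed in Negative cells.

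The remaining named Myb elements were empty in ES, and the +134.0 kb site, which tied with them at 10 sets but had fewer positive fragments, gave 0, 7, 4, 6 and 8 positive fragments (3 in HE1 without the 4 libraries). The -67.8 kb site (chr10:21228555-21228992), in the long non-coding RNA gene Gm33728, gave 0, 9, 8, 12 and 12 positive fragments from ES to HP and 0, 6, 5, 4 and 4 Negative ones. The +105.9 kb site (chr10:21054746-21055381), over an exon of Ahi1, gave 0, 4, 11, 7 and 8 positive fragments and 0, 3, 4, 3 and 0 Negative ones. Without the 4 HE1 libraries the HE1 positive counts of these sites were 6 and 7, and 7 at each of the start and +15.8 kb sites.

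Ikzf1 (chr11:11685003-11772926, plus strand) held 357 distinct fragments at 21 distal and 6 promoter sites, and its 3 most often positive distal sites all lay beyond the 3' end of the gene. The +137.9 kb site (chr11:11822355-11823415) lies within Ddc, the gene of aromatic amino acid decarboxylase, and covers the start of a Ddc transcript although it was deposited as distal. It gave 8, 10, 21, 9 and 9 positive fragments and 9, 5, 9, 2 and 2 Negative ones from ES to HP. The +103.8 kb site (chr11:11788511-11789132), over an exon of Fignl1, gave 8, 9, 20, 11 and 10 positive fragments and 2, 4, 14, 2 and 1 Negative ones. The +159.5 kb site (chr11:11844172-11844931), in an intron of Ddc, gave 2, 4, 10, 4 and 7 positive fragments and at most 1 Negative fragment in any stage.

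The start of Ikzf1 was covered by 2 sites with different stages. The +1.1 kb site (chr11:11685649-11686645) gave 0 positive fragments in ES and 6, 12, 9 and 9 in HB, HE1, HE2 and HP, with 0, 2, 6, 5 and 1 Negative ones. The +0.2 kb site (chr11:11685002-11685464) gave 3 in ES and none in any later stage, and no Negative fragment. Both overlap untranslated exons of Ikzf1. Without the 4 HE1 libraries the +1.1 kb site had 11 positive and 3 Negative fragments in HE1, the +103.8 kb site 15 and 4, the +137.9 kb site 16 and 0, and the +159.5 kb site 7 and 0.

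**Figure D3:**
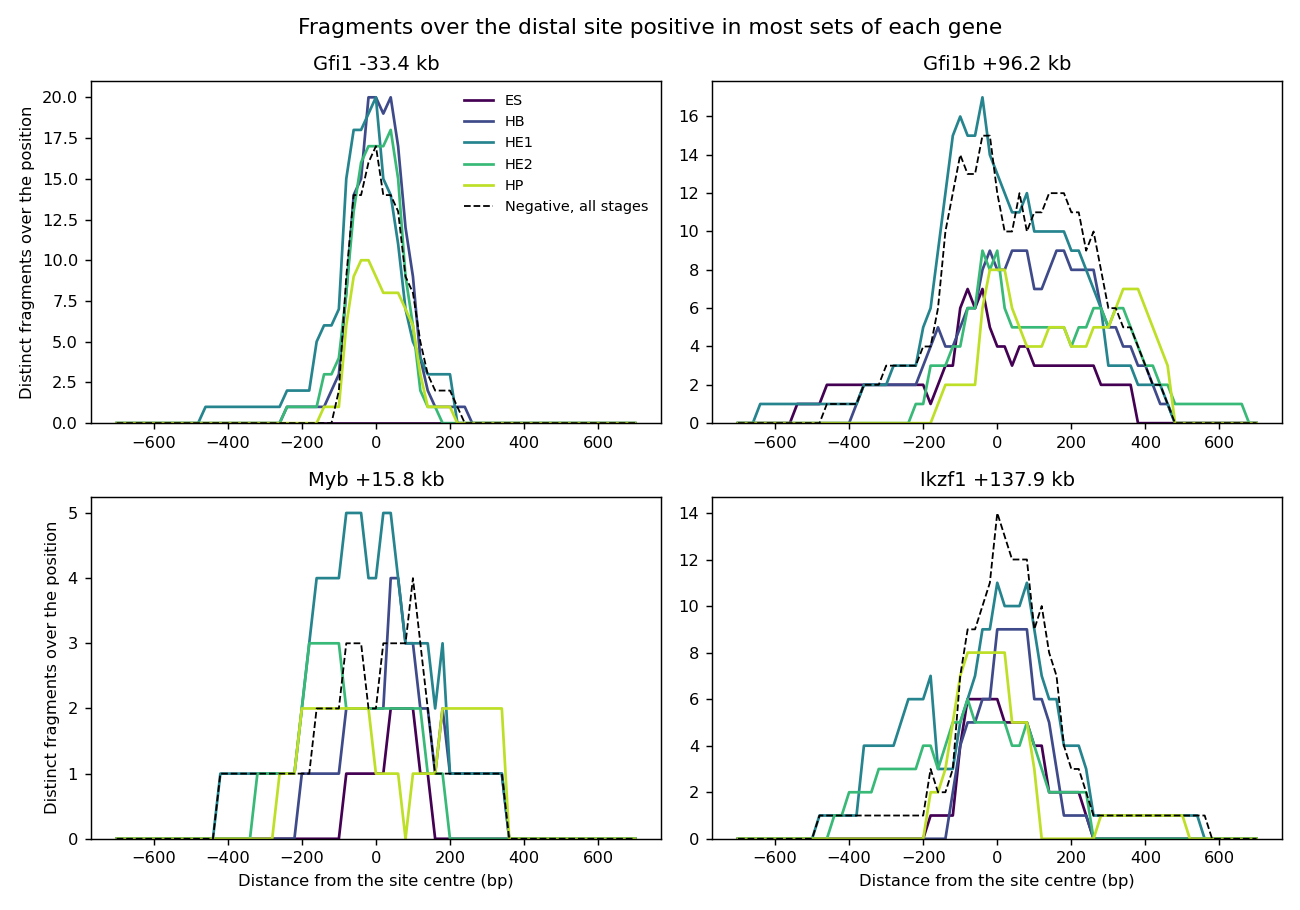
Number of distinct fragments over each position (y axis) against the distance from the median fragment midpoint in bp (x axis, direction of the gene) at the distal site of each gene that was positive in most sets; coloured lines are positive cells by stage and the dashed line Negative cells of all stages. The Gfi1 fragments pile up within about 100 bp of the centre and are absent in ES, whereas the other sites have a line for every stage.

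Over all 66 distal sites of the 4 loci, 7 were positive in all 5 stages (10.6%, against 10.7% of all 58911 distal sites). A further 25 were positive in HE1, HE2 or HP but not in ES or HB (37.9% against 46.7%), and 15 the other way round (22.7% against 20.5%). Mixed patterns made up 14 (21.2% against 17.1%), and 5 sites were listed only in Negative cells (7.58% against 5.02%). The share of these distal sites that was positive stood at 28.8%, 39.4%, 47.0%, 50.0% and 60.6% from ES to HP, whereas over all distal sites it was 28.9%, 36.2%, 51.2%, 48.5% and 41.3%. The 23 promoter-class sites were positive in all 5 stages in 26.1% of cases against 60.8% of all promoter-class sites. None of these shares was tested, and the number of fragments listed in positive cells differed between stages, from 200086 in ES to 405203 in HE1.

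Many member sites had neither a positive nor a Negative fragment in a given stage, as was the case across the screen. Of the 66 distal sites 28.8%, 40.9%, 47.0%, 51.5% and 68.2% had a fragment of either kind from ES to HP, against 32.1%, 38.3%, 52.3%, 50.5% and 43.7% of all distal sites. Sites with Negative fragments alone numbered 0, 1, 0, 1 and 5 of the 66 from ES to HP, and 4 of the 5 in HP were at Ikzf1. Over all 58911 distal sites they numbered 1921, 1221, 654, 1185 and 1433. These counts were not tested. The deposited lists had been limited to open chromatin peaks, and the sources used here do not say whether each stage was held against its own peaks. A silent fragment would fall in the Negative gate, so a site empty in both kinds of cell is no measure of reporter silence. Whether a peak filter or the number of fragments listed left such sites empty was not tested.

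Most positive fragments of the 4 loci were seen once. A single listing accounted for 70.0% of the distinct positive fragments of Gfi1, 76.2% of Gfi1b, 66.9% of Myb and 69.3% of Ikzf1, against 66.4% of all. The identical fragment was positive in 2 or more replicates of one stage for 10.0% (Gfi1), 8.96% (Gfi1b), 9.93% (Myb) and 10.9% (Ikzf1), against 12.8% of all. Between 23.96% (Ikzf1) and 26.0% (Gfi1) of the positive fragments were also listed in Negative cells, against 27.3% of all (289120 fragments). These shares include the 4 HE1 libraries with shared lists, of which Negative replicate 1 and Medium replicate 2 alone share 89445 fragments. They were not computed without these libraries, so they do not measure how often gating itself placed a fragment in both kinds of cell.

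Corrected for the fragments listed in each stage, Gfi1 had 0.2499 distinct positive fragments per 10000 in ES (exact 95% interval 0.0811 to 0.583, all replicates together) and 0.926 in HB (0.593 to 1.38), and the later stages stood at 0.913, 1.06 and 1.04. Intervals here and below are Clopper-Pearson intervals and cover counting error only, since fragments without molecular identifiers are not independent molecules. In replicates 1 to 5 the distinct positive fragments of Gfi1 numbered 4, 3, 0, 0 and 0 in ES, 10, 11, 3, 0 and 0 in HB and 22, 18, 0, 1 and 0 in HE1. They numbered 22, 14, 1, 0 and 0 in HE2 and 21, 7, 0, 0 and 0 in HP. ES was the lowest stage in both deep replicates, but the sets of 5 overlapped between all stages because of the zeros in the shallow ones.

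Gfi1b had 2.299 per 10000 in ES (1.68 to 3.07) and 3.70 in HB (3.00 to 4.52), and the later stages stood at 4.12, 3.52 and 4.03. Its positive fragments by replicate were 21, 24, 11, 0 and 0 in ES, 45, 40, 16, 0 and 1 in HB and 95, 81, 0, 4 and 0 in HE1. They were 64, 53, 4, 0 and 0 in HE2 and 72, 34, 0, 0 and 1 in HP. ES was again the lowest stage in positive cells, pooled and in both deep replicates, while in Negative cells ES stood at 4.01 (2.79 to 5.58), within the range of the other stages (3.50 to 4.58).

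Myb had 0.4998 per 10000 in ES (0.240 to 0.919) and 1.54 in HB (1.10 to 2.10), with 1.33, 1.40 and 2.00 (1.48 to 2.63 in HP) later. Its positive fragments by replicate were 4, 4, 3, 1 and 0 in ES, 14, 22, 8, 0 and 0 in HB and 30, 26, 2, 0 and 0 in HE1. They were 33, 11, 2, 1 and 2 in HE2 and 35, 15, 0, 0 and 2 in HP. In Negative ES cells the 5 replicates together had 0 of 87280 distinct fragments (exact 95% interval up to 0.423 per 10000).

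Ikzf1 had 2.40 per 10000 in ES (1.77 to 3.18) and 2.04 in HB (1.53 to 2.67), with 3.08 (2.57 to 3.68), 2.99 and 3.35 (2.67 to 4.15) later. Its positive fragments by replicate were 22, 23, 9, 0 and 1 in ES, 20, 28, 8, 2 and 1 in HB and 77, 56, 3, 1 and 1 in HE1. They were 58, 47, 0, 1 and 0 in HE2 and 70, 18, 0, 0 and 0 in HP. HB was lowest in the pooled counts and in replicate 1 but not in replicate 2, where ES (2.23 per 10000) lay below HB (2.298), nor in the mean of the 5 sets, which was lowest in HP (1.26). Without the 4 HE1 libraries the HE1 values were 0.927 (Gfi1), 3.98 (Gfi1b), 1.41 (Myb) and 3.40 (Ikzf1) in positive cells. In Negative HE1 cells leaving them out took Gfi1 from 17 to 4 fragments, Gfi1b from 62 to 10, Myb from 18 to 3 and Ikzf1 from 51 to 12, so that most Negative HE1 fragments of the 4 loci came from libraries with shared lists.

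**Figure D4:**
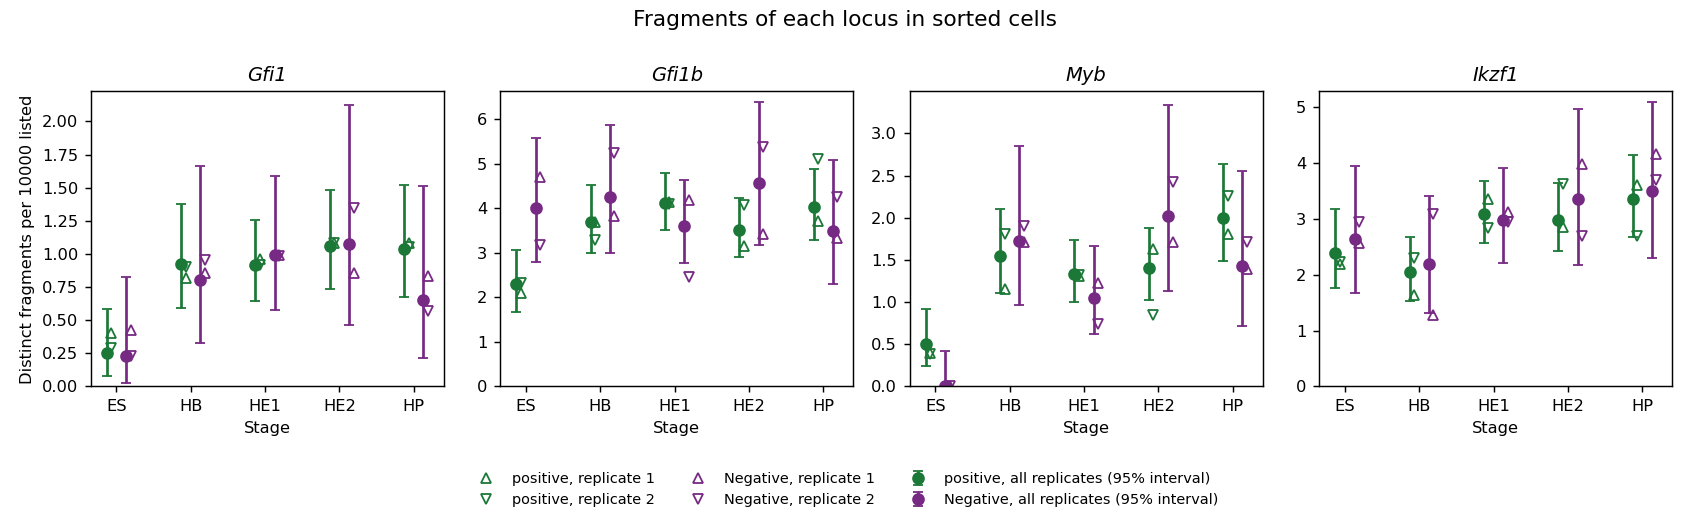
Distinct fragments of each locus per 10000 listed (y axis) by stage (x axis) in positive (green) and Negative (purple) cells; filled circles are all 5 replicates together with exact 95% intervals, and open triangles are replicates 1 and 2 alone. Gfi1 and Myb positive cells are lowest in ES (0.2499 and 0.4998), and the intervals of positive and Negative cells overlap in every panel and stage.

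Against the spread between the 5 replicate sets, no stage step at a locus passed the test. The fit by limma on log2(fragments per 10000 + 1) gave Gfi1 a difference of 0.36 ± 0.23 (SE, n = 5 and 5) for HB minus ES, with mean values of 0.505 ± 0.463 (SD) and 0.138 ± 0.193, and an adjusted p of 1.00. For the same step Gfi1b differed by 0.76 ± 0.63, Myb by 0.14 ± 0.44 and Ikzf1 by 0.34 ± 0.57 (SE), all with an adjusted p of 1.00. Means over 5 sets weight the shallow ones equally: Myb in HE2 averaged 4.13 ± 5.06 (SD) because 2 fragments among 1552 counted for 12.9 per 10000 in replicate 5. Of 16 tests of the 4 loci over the 4 steps, 0 passed, where 0% of 18343 to 18635 windows did. At an unadjusted p under 0.05, 433 to 773 windows did and none of the 4 loci. Nothing says that the replicates came from separate cultures, so p-values measure only the spread between these samples.

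Positive cells were next set against Negative cells of the same stage, which carry the same cassette. Of 20 tests of the 4 loci, 0 passed (0% of 17436 to 18050 windows). At an unadjusted p under 0.05, 1.09% to 2.52% of the windows of a stage did, and 1 of the 20 tests. That was Myb in ES, with 0.752 ± 0.762 per 10000 (SD, n = 5) in positive and 0 in Negative cells, a log2 difference of 0.71 ± 0.28 (SE) and a limma adjusted p of 1.00. A window was tested where 4 of the 10 sets held a fragment, and Myb in ES met this only through its 4 positive sets, so its unadjusted p counts for nothing here.

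In the other stages Myb differed by -0.06 ± 0.56 (SE) in HB, 0.62 ± 0.49 in HE1, 1.27 ± 0.85 in HE2, the largest difference of the 20, and 0.35 ± 0.67 in HP. The HE2 difference came from shallow sets, with 2 positive fragments of 1552 in replicate 5 and 1 of 2443 in replicate 4. Pooled, Myb in HE2 was lower in positive (1.40 per 10000) than in Negative cells (2.02). Both deep replicates also went this way, with 1.63 against 1.71 in replicate 1 and 0.849 against 2.43 in replicate 2. Gfi1 differed by 0.01 to 0.16 over the 5 stages on the log2 scale, with standard errors of 0.22 to 0.38. Gfi1b differed by -0.86 ± 0.74 (SE) in ES and -0.70 ± 0.89 in HE2, and by 0.12 to 0.44 in the other stages. The 0.44 in HB leaned on replicate 5, with 1 positive fragment of 1848 and no Negative one. Pooled, Gfi1b in HB was lower in positive (3.70 per 10000) than in Negative cells (4.26). Both deep replicates went this way, with 3.70 against 3.84 in replicate 1 and 3.28 against 5.24 in replicate 2. Ikzf1 differed by -0.46 to 0.44 with standard errors of 0.71 to 0.88. At the median window of all tested, the difference was 0.08 to 0.25, but this depended on the setting: it was -0.04 in HP with sets under 1000 fragments left out, and -0.14 in HE1 with High and Medium/High alone as the positive set. The 95% intervals of these differences reached 0.424 to 1.75 to either side, so that sizeable differences were not detectable at this depth.

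High gates were set against the Low gate, with Medium, High and Medium/High counted as high. Of 19 tests of the 4 loci, 0 passed (0% of 16353 to 17883 windows). At an unadjusted p under 0.05 0 did, against 0.598% to 2.00% of the windows of a stage. The largest difference was at Gfi1b in HB, with 4.34 per 10000 in the high and 1.202 in the Low sets, a log2 difference of 1.29 ± 0.84 (SE) and an adjusted p of 0.995. These means leaned on shallow sets: the high set of replicate 5 stood at 10.1 through 1 fragment of 992, and Low replicates 3, 4 and 5 at 0. Replicate 1 went the other way (3.43 high, 4.22 Low), and replicate 2 did not (3.78 and 1.79). Pooled, the values were 3.78 (3.01 to 4.69) in high and 2.94 (1.79 to 4.53) in Low gates, with overlapping intervals. Over all positive listings 38.7% came from High, 35.2% from Medium and 25.7% from Low libraries. The share from High was 30.7% at Gfi1, 39.2% at Gfi1b, 39.8% at Myb and 43.2% at Ikzf1. Among the named sites with more than 5 positive listings it ran from 26.4% of 87 listings at Gfi1 -33.4 kb to 58.6% of 29 at Myb +15.8 kb, where 1 listing was Low, 11 Medium and 17 High. These shares depend on the number of listings in each gate and were not tested.

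The same fits over merged sites reached no member either. Of 80 tests of positive against Negative cells at 33 sites of the 4 loci, 0 passed (0% of 11711 to 17808 sites in each stage). At an unadjusted p under 0.05 0 did, against 0.163% to 1.62% of sites. Of 66 tests of high against low gates, 0 passed (0% of sites). Without adjustment 0.185% to 1.34% of the sites of a stage did, and 1 of the 66 tests. That was the Myb +134.0 kb site in HE2 (log2 difference 0.87 ± 0.43, SE, limma adjusted p = 0.998). The means there were 3.17 per 10000 in the high and 0.0241 in the Low sets. The high set of replicate 5 stood at 15.5 through 1 fragment of 646 listed, so passing without adjustment rested largely on 1 fragment. Of 87 tests of adjacent stages, 0 passed, against 0.00557% of sites for HB minus ES, where 1 of 17948 was called, and 0% for the other 3 steps. Without adjustment 0.510% to 2.89% of the sites of a step did, and 1 of the 87 tests. That was the Ikzf1 +1.1 kb start site for HB minus ES (0.460 against 0 per 10000, limma adjusted p = 1.00). It met the filter only through 4 HB sets, with none in ES, so that passing without adjustment counts for nothing. Sites with a fragment in under 4 of the 10 sets of a comparison were not tested.

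A list of 24 other blood factor genes, among them Runx1, Spi1, Tal1, Gata1, Gata2, Kit, and Kdm1a and Rcor1, which encode partners of the GFI1 proteins, behaved the same way. None of its 23 or 24 tested windows was called higher or lower in any of the 14 comparisons, with a smallest adjusted p of 0.968, beside 0% of all windows. Its median difference for positive minus Negative cells was 0.02 to 0.34 on the log2 scale, beside 0.08 to 0.25 over all windows.

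The plasmid lists show how each locus was represented before sorting. Per 10000 listed plasmid fragments of both vectors together, Gfi1 had 1.04, Myb 1.42, Ikzf1 2.98 and Gfi1b 3.74. Per Mb and 1000000 fragments, the Gfi1b window held 1517 to 2121 over the 10 lists, where 84.6% to 90.0% of all protein-coding windows held less. Gfi1 held 330.1 to 614.4 (29.01% to 48.3% of windows lower) and Myb 410.3 to 826.4 (35.0% to 58.4%). Ikzf1 held 921.4 to 1251, more than 64.5% to 74.4% of all windows. Chromosome 11 makes up 4.48% of the genome by length but 10.6% to 11.5% of plasmid fragments and 12.4% of sorted listings. Among windows of chromosome 11 the Ikzf1 window was therefore in the lower part, above only 27.9% to 36.4% of them in the 10 lists.

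Of the distinct plasmid fragments in the windows, 2.38% at Gfi1 (87 of 3654, exact 95% interval 1.91 to 2.93), 3.04% at Gfi1b, 2.88% at Myb and 3.05% at Ikzf1 were listed in sorted cells with the same start and end. The median window had 2.96% and the median window of chromosome 11 3.25%. The counting interval of Gfi1 lay below the median window, but it does not measure the spread between windows. Of all windows, 33.6% had a lower share than Gfi1. With starts and ends allowed to differ by up to 5 bp, 5.15% were listed at Gfi1, 6.55% at Gfi1b, 4.88% at Myb and 7.12% at Ikzf1, against 6.65% in the median window and 8.49% in that of chromosome 11. In the 3 HM-1 control lists, Gfi1 had no fragment, Gfi1b 3, Myb 1 and Ikzf1 7, and 1 listing at Myb and 2 at Ikzf1 in sorted cells were identical to a control fragment.

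At single sites the plasmid lists differed by the stage of the chromatin. From ES to HP the Gfi1 -33.4 kb site had 0, 20, 130, 179 and 221 pDONR fragments. Against the 3 fragments that a count of 0 allows in the ES list, HP was at least 60.9-fold higher per 1000000 listed in pDONR and at least 20.4-fold in pSKB. The sorted positive fragments did not follow this order, with 22 in HB and 11 in HP.

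The Myb elements differed in direction. Per 1000000 pDONR fragments the -67.8 kb site went from 0.530 in ES to 22.4 in HP, a ratio of 42.2 with a counting interval of 14.2 to 207. The +105.9 kb site was at 6.04-fold (3.89 to 9.79), and the +15.8 kb site stood at 0.239-fold (0.142 to 0.389), from 76 fragments in ES to 22 in HP. The pSKB ratios were 14.95, 11.1 and 0.163 in that order. The Myb start site changed less, 1.86-fold (1.29 to 2.74).

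At Gfi1b the +96.2 kb site was level between ES and HP (1.10-fold, 0.898 to 1.35), whereas the start site was at 5.37-fold (2.26 to 15.5) from 6 to 39 fragments. At Ikzf1 the +103.8 kb site was at 1.95-fold (1.44 to 2.66), the +1.1 kb start site at 1.75-fold (1.33 to 2.33) and the +137.9 kb site at 0.700-fold (0.510 to 0.958). With 1 list per stage and vector, these ratios have no replicate check. Of 59 distal member sites with at least 10 pDONR fragments in ES and HP together, 22 were over 5-fold higher in HP (37.3%), against 16.2% of 43871 distal sites, after 0.5 was added to each count. The counts were 3 of 7 at Gfi1, 6 of 23 at Gfi1b, 5 of 11 at Myb and 8 of 18 at Ikzf1.

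**Figure D5:**
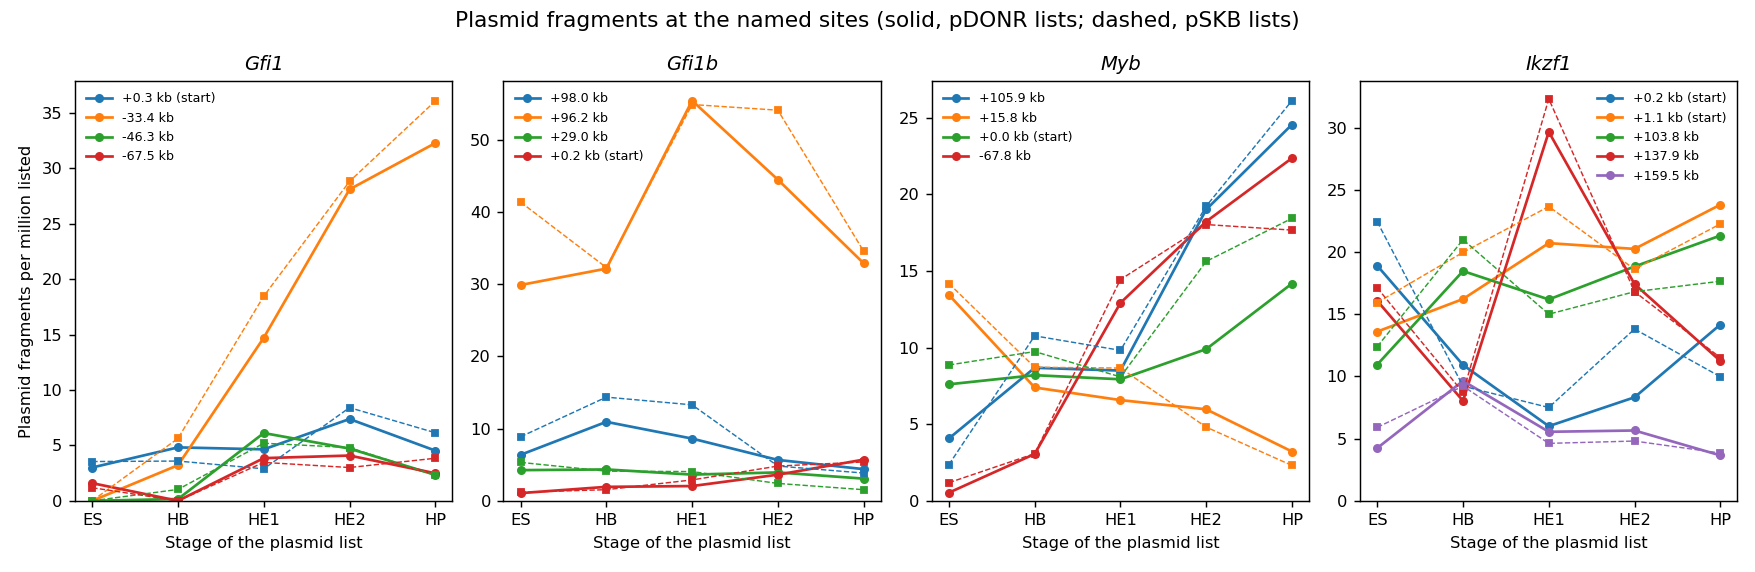
Plasmid fragments at the named sites per 1000000 listed (y axis) by the stage whose chromatin the plasmid list came from (x axis); solid lines are pDONR and dashed lines pSKB lists, 1 list per point. The Gfi1 -33.4 kb and Myb -67.8 kb sites stand at 0 and 0.530 in ES and at 32.3 and 22.4 in HP in pDONR, and the Myb +15.8 kb site at 13.4 in ES and 3.21 in HP.

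The stage at which a fragment was sorted was often not the stage of the plasmid list that held it. Of the 24 positive Gfi1 fragments in HB, 1 had an identical fragment in the HB plasmid lists and 18 only in lists of other stages, with 50.0% of the 24 found in HE2 lists. All 5 positive Gfi1 fragments and all 10 positive Myb fragments of ES were held by lists of other stages only. At Ikzf1 in HP, 5 of 84 were in HP lists and 67 only in others, and at Gfi1b in HE1 62 of 167 were in HE1 lists. Over all fragments the share in lists of the own stage was 14.3%, 10.1%, 42.1%, 27.3% and 10.3% from ES to HP, so the 4 loci shared this feature with the whole screen. A stage label of sorted cells thus states where a fragment was read, not from which chromatin it was cloned.

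By the pattern of log2 positive fragments per 10000 + 1 over the 25 stage and replicate sets, the windows most like Gfi1 were those of Nfatc2 (Pearson r = 0.963) and Nek7 (0.915). Those most like Gfi1b were Pold3 (0.943) and 1600014C10Rik (0.933), those most like Myb were Cep70 (0.808) and Esyt3 (0.788), and those most like Ikzf1 were Gm20518 and Dgcr2 (0.840 each). Among the 4 loci, Gfi1 and Gfi1b had r = 0.755, while Myb and Ikzf1 had r = -0.113. The sets share their libraries and depth, a member had a fragment in only 13 to 19 of the 25 sets, and single fragments in shallow sets carry much of these values, which are a description over all genes searched.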

How the data were processed

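The data were 95 lists of reporter fragments from sorted cells, 10 lists of plasmid fragments and 3 lists from HM-1 control PCR, all on mm10. The authors combined first and repeat sequencing, trimmed (Trim Galore), aligned (Bowtie2), filtered by mapping quality and collapsed reads to unique fragments (SAMtools, bedtools). By their account, they then kept sorted fragments that were in the plasmid lists, not in the controls and within open chromatin peaks. The deposited lists met the plasmid and control steps only in part, as the matches given below show. The sorted lists deposited by the authors hold intervals only, with no count or signal, so their unit is a listed fragment and read depth is unknown. The plasmid and control lists deposited by the authors give a read count per fragment, which was not used for levels, since fragments were counted.

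Starts were shifted by 1 bp to match sorted with plasmid fragments: 83.5% were then identical to a plasmid fragment, against 3.73% as deposited, and 15549 listings were identical to a control fragment. The 1042 listings off the main chromosomes were left out. Fragments overlapping a gene and 100 kb on each side (GENCODE vM21) were counted per stage, gate and replicate, divided by the fragments listed in that set, and tested as log2(fragments per 10000 + 1) with limma 3.58.1 in R 4.3.3 over all windows or merged sites that were listed in 4 or more of the 10 sets compared. P-values were adjusted by Benjamini-Hochberg with a threshold of 0.05. Positive sets pooled Low, Medium, High and Medium/High. The fits were also run on simulated independent Poisson counts at the HP set sizes. Such counts lack the shared libraries and the spread between replicates of these data. Named sites were, per gene, the 3 distal sites positive in most sets (ties by more distinct positive fragments) and any site over the gene's own start; other sites named were chosen after their values were seen. The members and the gene lists were chosen with earlier results of these data known.

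Same-numbered replicates of the groups compared correlated above 0.1 in all 5 pairs in only 2 of 14 comparisons, so the main fits did not pair the samples by number. The correlations ran from -0.023 to 0.407, so this rule does not exclude pairing. Alternatives were two-sided exact permutation tests (Python 3.11.15, SciPy 1.17.1), the replicate block, matching within 5 bp, each replicate left out, other pseudocounts, filters, window sizes and gate sets, and the HE1 libraries that share fragments left out.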

Additional observations from a re-analysis of the deposited data

Results flagged for a closer look

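In 4 of 39 groups of 5 replicate sets that had any spread, 1 set stood apart from the other 4 by more than 0.71 of the range (Dixon rule). The usual chance rate of this rule, about 1 group in 20, does not apply here, since the sets differ widely in size. Myb stood at 5.17 fragments per 10000 in positive HE1 cells of replicate 3, which is 2 fragments of 3865 listed, and at 12.9 in positive HE2 cells of replicate 5, which is 2 of 1552. Ikzf1 stood at 17.1 per 10000 in Negative HE1 cells of replicate 5, 2 of 1169, and Gfi1b at 27.8 in Negative HE2 cells of replicate 3, 2 of 720. Each of the 4 values rests on 2 fragments in a shallow set.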

How the results depend on the processing

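No locus or site of the 4 genes was called under any setting tried, and the number called was 0 in all 87 counts computed again. Some of these counts could hardly differ from 0. The smallest p that the exact permutation test can give is 0.00794, so 1 locus alone could not pass after adjustment. Leaving out replicate 1 or replicate 2 kept only 6 of 19 locus tests of high against Low gates. With the replicate number as a block, 0 of the tests of the 4 loci and their sites passed and the smallest adjusted p of a member was 0.685. It was 0.510 with no filter on low values, the lowest of any setting, and 0.746 without the 4 HE1 libraries. Over all windows and sites, 53 were called without replicate 5, 25 with no filter, 19 with 50 kb on each side and 13 without replicate 4, none of them a member. With no division by listed fragments, signs of uncalled differences were kept in 70.9% of tests at the loci and 57.5% at the sites. Allowing 5 bp moved the share of plasmid fragments recovered to between 4.88% (Myb) and 7.12% (Ikzf1). Only replicates 1 and 2 were deep, so differences that 3 shallow sets would have to share were not detectable.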

Other observations

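Some sites that the naming rule did not reach are given here after their values were seen. The Gfi1b +22.5 kb site had no fragment in ES or HB, 10, 9 and 4 positive fragments in HE1, HE2 and HP, and 8, 3 and 4 Negative ones, beside 6, 8, 99, 204 and 219 pDONR fragments from ES to HP. Without the 4 HE1 libraries that share fragments its HE1 counts were 7 and 4. The Gfi1b +23.9 kb site beside it was listed in HB only, with 9 positive and 3 Negative fragments. The +9.3 kb site had 2 positive and 4 Negative fragments in ES, 4 and 2 in HB, and none later.

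At Ikzf1 the +152.0 kb site gave 0, 0, 18, 17 and 14 positive fragments and 0, 0, 7, 4 and 6 Negative ones, with 15 and 2 in HE1 without the 4 libraries. Its pDONR representation in HP was 9.09 times that in ES (counting interval 5.15 to 17.5). The Gfi1b +104.6 kb site gave 0, 13, 16, 17 and 21 positive fragments and 0, 5, 3, 6 and 1 Negative ones, with 14 and 0 in HE1 without the 4 libraries. Its pDONR representation in HP was 0.605 times that in ES (0.456 to 0.800).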
